A study of Saccharomyces cerevisiae with 14 samples.

Results

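The sirtuin genes of budding yeast (Saccharomyces cerevisiae) are SIR2 (YDL042C), HST1 (YOL068C), HST2 (YPL015C), HST3 (YOR025W) and HST4 (YDR191W), and their transcripts were followed through an induction of the transcription factor gene SWI4. The 5 genes were chosen by name as the complete family, out of 6670 identifiers in the count table, and earlier results of these libraries were known when the family was picked. Their values are therefore given as a description, with standard errors and without p-values, and the statement that a gene passed the threshold of the all-gene test describes that gene and supports nothing further. All 5 were among the 6337 genes that passed the filter on low counts.

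All 14 libraries came from yeast cells of the genotype Z3EVpr-SWI4, in which SWI4 stands behind a promoter that answers to an artificial, estradiol-activated transcription factor, and all were grown in synthetic complete medium with 2% glucose. There were 7 groups of 2 libraries of polyadenylated RNA. Estradiol groups had received 5 nM beta-estradiol dissolved in ethanol for 1, 2 or 4 h, ethanol groups had received the solvent for 1, 2 or 4 h, and the untreated group was taken at 0 h. The controls carry the same SWI4 construct, so every comparison is within 1 genotype, and the treatment protocol speaks of an induction of 1 h while the sample labels give the 3 times used here. No label gives a strain name or mating type, and none says whether the 2 libraries of a group came from separate cultures, so errors measure the spread between these libraries, which may be technical.

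Sirtuins are protein deacetylases that consume NAD. Sir2 is recruited with Sir3 and Sir4 to the silent mating-type loci and telomeres, where it removes acetyl groups from histone tails, and with Net1 and Cdc14 to the ribosomal DNA. Hst1, its closest relative, works with Sum1 and Rfm1 at middle sporulation genes and genes of NAD synthesis and is also found in the Set3 complex. Hst2 is largely cytoplasmic. Hst3 and Hst4 remove the acetyl group from lysine 56 of histone H3, a mark placed on newly made histones by Rtt109 with the chaperone Asf1. Swi4 is the DNA-binding subunit of SBF, which drives transcription at the start of the cell cycle.

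Library totals were 6817193 to 15561120 counts in estradiol, 3469868 to 16212966 in ethanol, and 12312060 and 17314913 in untreated libraries, so the untreated and 4 h values rest on more reads than most at 1 and 2 h. Levels are given as CPM, read counts set to a common library size after scaling by TMM factors. SWI4 stood at 668 to 1731 CPM in the 6 estradiol libraries, 12.1 to 23.0 CPM in the 6 ethanol libraries, and 17.9 and 20.7 CPM in the untreated libraries. Its log2 fold change of estradiol over ethanol was 6.64 ± 0.48 (SE) at 1 h, 6.21 ± 0.47 at 2 h and 5.61 ± 0.45 at 4 h, with edgeR quasi-likelihood adjusted p of 2.3e-05, 3.6e-05 and 5.5e-05. The a-cell gene MFA1, for the pheromone a-factor, had 2.52 to 6.55 CPM in estradiol, 60.3 to 81.1 CPM in ethanol and 61.0 and 65.4 CPM in untreated libraries. MF(ALPHA)1, the alpha-factor gene of alpha cells, did not pass 0.495 CPM in any library. The sum of the 5 a-cell markers (MFA1, MFA2, STE2, AGA2 and BAR1) was 497 to 749 CPM in estradiol, 1124 to 1468 CPM in ethanol, and 1095 and 1285 CPM in untreated libraries, and each of the 5 was lower in all estradiol than in all ethanol libraries. That of the 4 alpha-cell markers was 18.8 to 23.1 CPM in estradiol, 21.5 to 26.0 CPM in ethanol and 23.7 and 23.9 CPM in untreated libraries. The part of these markers in the sirtuin values was not tested.

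Of the 5 sirtuin genes, HST3 and HST4 were the 2 whose estradiol and ethanol libraries did not overlap, and they lay on opposite sides. HST3 was higher and HST4 lower in all 6 estradiol libraries than in all 6 ethanol libraries. HST4 passed the adjusted threshold of 0.05 at 1, 2 and 4 h and in the average over times, and HST3 in the average only. SIR2, HST1 and HST2 passed in none of these comparisons. As background, 61 of 6337 genes (0.963%) passed at 1 h, 80 (1.26%) at 2 h and 119 (1.88%) at 4 h, and 393 of 6320 genes (6.22%) passed in the average, 208 higher (3.29%) and 185 lower (2.93%). Full separation occurred upward in 131 genes (2.07%) and downward in 132 genes (2.09%).

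HST3, for one of the lysine 56 deacetylases, was the more abundant of that pair. Its estradiol libraries had 62.8 and 41.5 CPM at 1 h, 50.5 and 40.0 CPM at 2 h, and 45.6 and 37.8 CPM at 4 h. Its ethanol libraries had 29.9 and 30.2 CPM at 1 h, 30.3 and 26.6 CPM at 2 h, and 27.7 and 24.8 CPM at 4 h, and the untreated libraries had 34.2 and 41.3 CPM. The lowest estradiol library stood above the highest ethanol library, while the estradiol range took in the higher untreated library. RNA of whole cultures cannot tell a change in the number of cells at a stage of the cell cycle from a change in RNA per cell, for HST3 or for any gene below. Estradiol over ethanol gave a log2 fold change of 0.80 ± 0.23 (SE, n = 2 each) at 1 h, 0.67 ± 0.23 at 2 h and 0.66 ± 0.22 at 4 h, and the average was 0.72 ± 0.12, a 1.65-fold difference with a 95% interval of 1.35 to 2.01. With library totals in place of TMM factors that average was 0.79 and did not pass.

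HST4 was the least abundant sirtuin transcript in every library. Its estradiol libraries had 5.98 and 5.64 CPM at 1 h, 6.91 and 6.35 CPM at 2 h, and 6.62 and 7.79 CPM at 4 h. Its ethanol libraries had 12.9 and 11.9 CPM at 1 h, 13.4 and 12.2 CPM at 2 h, and 13.6 and 14.1 CPM at 4 h, and the untreated libraries had 10.5 and 9.98 CPM. The 3 treatments were separated without overlap, estradiol lowest, untreated between and ethanol highest. HST4 fell by 1.08 ± 0.20 on the log2 scale (SE, n = 2 each) at 1 h, by 0.94 ± 0.20 at 2 h and by 0.94 ± 0.17 at 4 h relative to ethanol. In the average it fell by 0.97 ± 0.10, so that the ethanol level was 1.96 times the estradiol level with a 95% interval of 1.66 to 2.32.

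The counts behind HST4 were small, from 34 reads in ethanol 1 h replicate 1 (exact 95% Poisson interval 23.5 to 47.5, which covers counting error only) to 205 reads in ethanol 4 h replicate 2. Its average passed in all 12 fits that left out a library, with log2 fold changes between -1.01 and -0.94. At single times the threshold was missed more often than the fold moved. At 1 h it was missed without either estradiol 1 h library, either ethanol 4 h library, either untreated library, or replicate 1 of ethanol 1 h or 2 h, although the fold stayed between -1.11 and -1.03 over the 14 such fits. At 2 h it was missed when any 1 library other than the 2 of ethanol 1 h was left out (range -1.01 to -0.88), and at 4 h when any 1 of the 4 libraries taken at 4 h was left out (range -1.06 to -0.83). With library totals in place of TMM factors, and in fits of only the groups compared, HST4 passed at no single time.

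**Figure D1:**
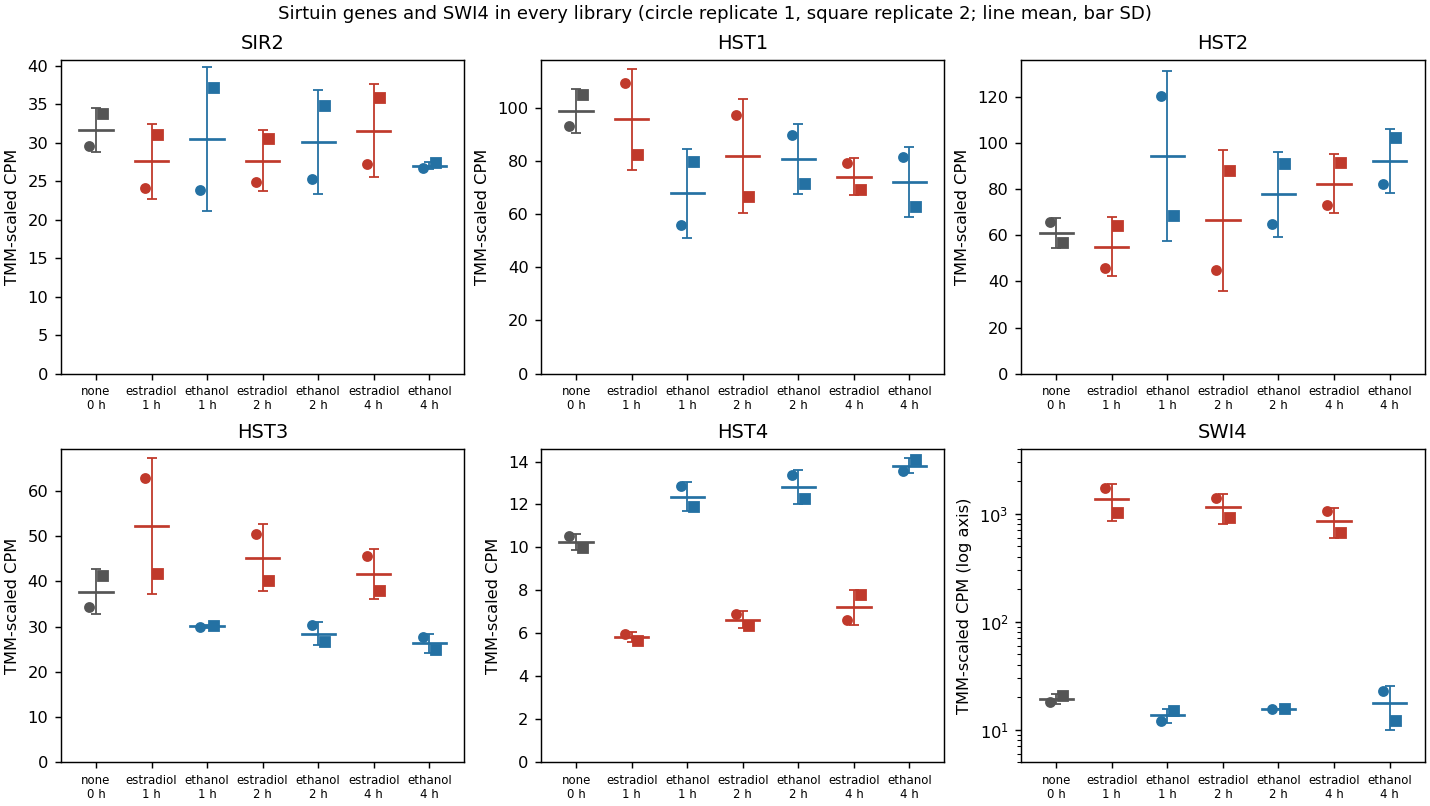
TMM-scaled CPM of each sirtuin gene and of SWI4 (log axis) in every library. Circles are replicate 1, squares replicate 2, horizontal lines group means and bars the SD of 2 libraries. HST3 has all estradiol points at 37.8 CPM or above and all ethanol points at 30.3 CPM or below, and HST4 has all estradiol points at 7.79 CPM or below and all ethanol points at 11.9 CPM or above.

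The sequence before each gene is shown for HST3 and HST4, the members that separated by treatment, so that a reader can see which letters their promoters hold. Each window runs from 250 bases before the start codon to 50 bases from its first base on, on the gene's own strand, and was read from the R64 assembly of the S288C reference with its RefSeq annotation. No source used here names the build behind the counts. HST3 lies at chrXV:377969-378268 (+) and HST4 at chrIV:842087-842386 (+).
HST3: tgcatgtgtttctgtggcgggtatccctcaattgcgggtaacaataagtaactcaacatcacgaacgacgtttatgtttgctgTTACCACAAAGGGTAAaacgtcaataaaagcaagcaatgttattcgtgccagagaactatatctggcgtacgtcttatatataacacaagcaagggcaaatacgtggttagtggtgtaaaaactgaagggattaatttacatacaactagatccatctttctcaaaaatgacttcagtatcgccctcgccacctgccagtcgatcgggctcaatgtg
HST4: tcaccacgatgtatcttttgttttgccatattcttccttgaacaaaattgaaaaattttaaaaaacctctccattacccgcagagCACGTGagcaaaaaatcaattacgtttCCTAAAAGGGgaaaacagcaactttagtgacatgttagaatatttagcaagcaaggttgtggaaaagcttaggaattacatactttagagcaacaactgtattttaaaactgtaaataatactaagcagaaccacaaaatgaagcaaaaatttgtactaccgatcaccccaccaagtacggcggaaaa
Capitals in HST3 mark a match to TTACCNNNNNNGGTAA, the palindrome bound by Mcm1, and capitals in HST4 mark CACGTG, the letters recognised by Cbf1 and Pho4, followed by the first of 2 matches to CCNNNNNNGG, the core of the Mcm1 palindrome, while the other, inside the coding sequence, is left in lower case.

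Motif letters were searched on both strands of the same window before 6020 genes. The full palindrome stood 167 to 152 bases before the HST3 start codon and occurred in 2 promoters (0.0332%), but it was looked for after the windows had been read. Its core CCNNNNNNGG, which lies inside that palindrome, was present before all 5 sirtuin genes and in 29.1% of promoters. CACGTG stood 165 to 160 bases before the HST4 start codon and occurred in 2.91% of promoters. CNCGAAA, the SBF motif, was in 13.8% of promoters and ACGCGT, the MBF motif, in 3.06%, and neither was in a sirtuin window. In windows starting 500 bases before the start codon, CNCGAAA occurred in 23.1% of promoters and before no sirtuin gene, and ACGCGT in 5.57% and before HST2. GTAAACA, the forkhead motif, was in 6.53% of the shorter and 10.9% of the longer windows, and before HST4 in the longer one. A match is a run of letters, and its absence says only that these letters are not in the window.

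Setting HST3 over HST4 within a library removes the scaling between libraries. The pair was chosen because HST3 was higher and HST4 lower in every estradiol than in every ethanol library. Their ratio therefore had to separate estradiol from ethanol, and that separation is no further evidence. Per kilobase of coding sequence (1344 bases for HST3 and 1113 for HST4) the ratio was 8.70 and 6.10 at 1 h, 6.05 and 5.22 at 2 h and 5.70 and 4.02 at 4 h in estradiol. It was 1.92 and 2.10 at 1 h, 1.88 and 1.80 at 2 h and 1.70 and 1.46 at 4 h in ethanol, and 2.69 and 3.43 in untreated cells. The estradiol ratios lay above, and the ethanol ratios below, both untreated ones. The sum of all 5 genes per kilobase overlapped between treatments, at 165 to 187 CPM per kb in estradiol, 169 to 197 in ethanol and 175 and 181 in untreated libraries. Of that sum HST3 made up 19.6% ± 4.01 in estradiol, 11.7% ± 1.29 in ethanol and 15.7% ± 1.69 in untreated libraries (SD, n = 6, 6 and 2). HST4 made up 3.34% ± 0.352 in estradiol, 6.48% ± 0.512 in ethanol and 5.17% ± 0.322 in untreated libraries.

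**Figure D2:**
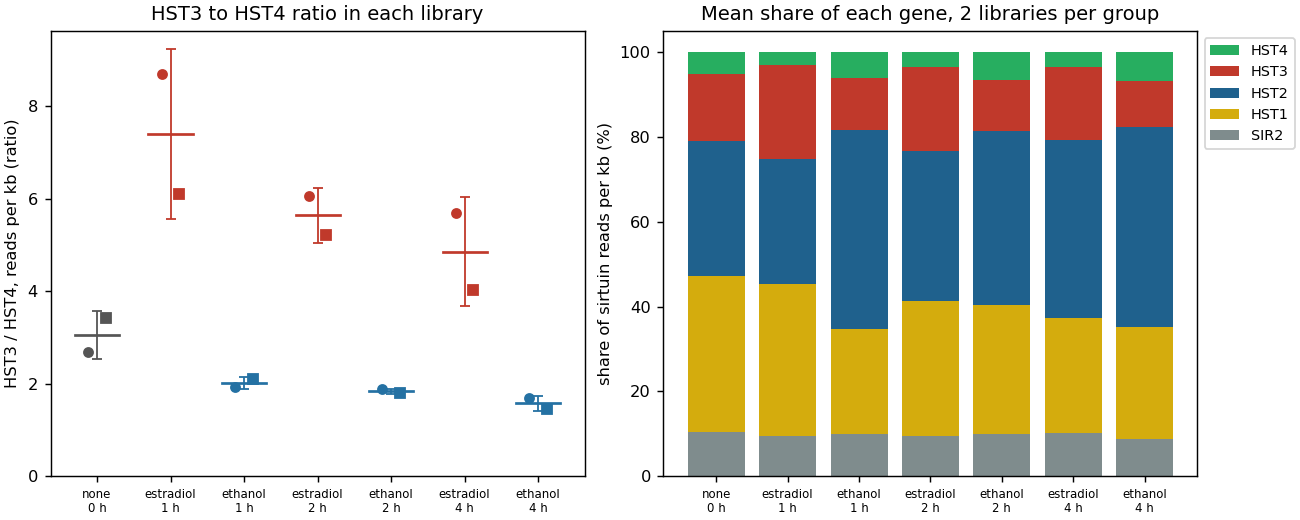
Left, ratio of HST3 to HST4 per kilobase in each library (circles replicate 1, squares replicate 2, lines means, bars SD of 2 libraries). Right, mean share of each gene in the sirtuin total per kilobase (%), 2 libraries per group. The 6 estradiol ratios span 4.02 to 8.70 and the 6 ethanol ratios 1.46 to 2.10, a separation that follows from the choice of this pair.

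SIR2, the founding member, had 24.1 and 31.0 CPM at 1 h, 24.9 and 30.4 CPM at 2 h, and 27.3 and 35.8 CPM at 4 h in estradiol. Ethanol libraries had 23.8 and 37.0 CPM at 1 h, 25.2 and 34.8 CPM at 2 h, and 26.7 and 27.3 CPM at 4 h, and untreated ones 29.6 and 33.7 CPM. The groups overlapped throughout, and replicate 1 was the lower of each pair. The log2 fold change of estradiol over ethanol was -0.16 ± 0.26 (SE) at 1 h, -0.13 ± 0.26 at 2 h, 0.22 ± 0.24 at 4 h and -0.0037 ± 0.15 in the average. The 95% interval of that average ran from 0.791-fold to 1.26-fold, so differences of that size cannot be told from none here.

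HST1, the partner of Sum1, had 109.1 and 82.0 CPM at 1 h, 97.1 and 66.5 CPM at 2 h, and 79.0 and 69.0 CPM at 4 h in estradiol. Ethanol libraries had 55.9 and 79.5 CPM at 1 h, 89.9 and 71.3 CPM at 2 h, and 81.4 and 62.8 CPM at 4 h, and untreated ones 93.0 and 104.7 CPM. The highest ethanol library stayed below both untreated libraries, while the estradiol range spanned them. The log2 fold change of estradiol over ethanol was 0.49 ± 0.26 (SE) at 1 h, 0.02 ± 0.25 at 2 h, 0.04 ± 0.25 at 4 h and 0.19 ± 0.15 in the average, whose interval was 0.893-fold to 1.46-fold.

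HST2, the cytoplasmic member, had 45.9 and 64.1 CPM at 1 h, 45.0 and 88.2 CPM at 2 h, and 73.3 and 91.4 CPM at 4 h in estradiol. Ethanol libraries had 120.6 and 68.4 CPM at 1 h, 64.9 and 90.8 CPM at 2 h, and 82.4 and 102.2 CPM at 4 h, and untreated ones 65.7 and 56.5 CPM. The groups overlapped, and at 1 and 2 h the libraries of ethanol 1 h and of estradiol 2 h lay further apart than the means of the estradiol and ethanol groups at the same time. The log2 fold change of estradiol over ethanol was -0.77 ± 0.35 (SE) at 1 h, -0.23 ± 0.35 at 2 h, -0.16 ± 0.34 at 4 h and -0.37 ± 0.20 in the average, whose interval was 0.558-fold to 1.07-fold. Without single libraries the 1 h value of HST2 ranged from -1.10 to -0.31.

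**Figure D3:**
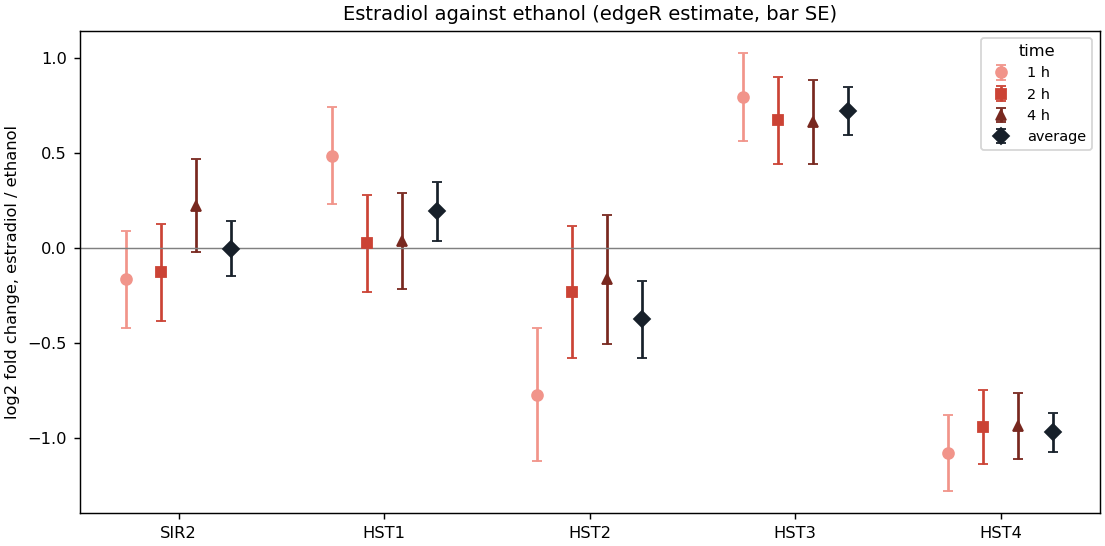
Log2 fold change of estradiol over ethanol for each sirtuin gene at 1, 2 and 4 h and averaged over times (edgeR estimate, bars SE). HST3 lies between 0.66 and 0.80 and HST4 between -1.08 and -0.94 at every point, while the other 3 genes lie within 1 SE of 0 at 2 and 4 h.

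Set per kilobase of coding sequence, HST1 and HST2 were the most abundant transcripts in most libraries and HST4 the least abundant in all of them. HST2 averaged 63.3 ± 18.7 CPM per kb in estradiol, 82.1 ± 19.6 in ethanol and 56.9 ± 6.05 in untreated libraries (SD over 6, 6 and 2 libraries). HST1 averaged 55.4 ± 10.9, 48.6 ± 8.33 and 65.3 ± 5.47 CPM per kb in the same groups, and HST2 was above HST1 in all 6 ethanol libraries and below it in both untreated libraries. In estradiol they exchanged places between libraries and did not differ beyond their spread. HST3 averaged 34.5 ± 6.86 CPM per kb in estradiol and 28.1 ± 3.71 CPM per kb in untreated libraries, below HST1 and HST2 except in estradiol 1 h replicate 1, where it stood above HST2. In ethanol HST3 averaged 21.0 ± 1.67 CPM per kb and SIR2 17.3 ± 3.21 CPM per kb, SDs that do not measure the difference within a library. HST3 was above SIR2 in each ethanol library except 2 h replicate 2, where SIR2 was the higher. SIR2 averaged 17.1 ± 2.59 CPM per kb in estradiol and 18.7 ± 1.69 in untreated libraries. HST4 was lowest throughout, at 5.88 ± 0.678 in estradiol, 11.7 ± 0.742 in ethanol and 9.21 ± 0.344 CPM per kb in untreated libraries.

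Ethanol alone was compared with the untreated cells to see how the levels stood without SWI4 induction. Untreated cells were taken at 0 h only, so treatment cannot be told apart from time in culture in any comparison with them. No sirtuin gene passed the threshold at 1, 2 or 4 h. In edgeR 0 of 6337 genes (0.0%) passed at 1 h, where 397 had an unadjusted p under 0.05 and DESeq2 called 22, and 3 genes (0.0473%) passed at 2 h and 110 (1.74%) at 4 h. For HST4 the log2 fold change of ethanol over untreated was 0.27 ± 0.19 (SE) at 1 h, 0.32 ± 0.18 at 2 h and 0.43 ± 0.17 at 4 h, and for HST3 it was -0.33 ± 0.23, -0.41 ± 0.23 and -0.52 ± 0.22. HST2 stood at 0.62 ± 0.35, 0.35 ± 0.34 and 0.60 ± 0.34, HST1 at -0.54 ± 0.26, -0.30 ± 0.25 and -0.46 ± 0.25, and SIR2 at -0.04 ± 0.25, -0.07 ± 0.25 and -0.23 ± 0.24. HST4 and HST2 thus stood above 0 and the other members below it at each time, with all values within 3 SE of 0. At 4 h the 95% interval was 0.028 to 0.83 for HST4 and -1.05 to -0.00014 for HST3. All other intervals of ethanol over untreated for these genes included 0.

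Estradiol over untreated used the same 2 untreated libraries, so these values are set beside the ethanol ones without a further comparison. HST4 gave -0.81 ± 0.18 (SE) at 1 h, -0.62 ± 0.19 at 2 h and -0.51 ± 0.18 at 4 h. HST3 gave 0.47 ± 0.22, 0.26 ± 0.22 and 0.14 ± 0.22 at the same times. HST4 lay below 0 and HST3 above it at each time, both nearest to 0 at 4 h. No sirtuin gene passed the threshold against untreated, and the 95% interval of HST3 included 0 at each time (-0.38 to 0.66 at 4 h). That of HST4 lay below 0 at each time, at -1.25 to -0.38, -1.06 to -0.18 and -0.92 to -0.092. For HST1 the values were -0.05 ± 0.25, -0.27 ± 0.25 and -0.42 ± 0.25, for HST2 -0.15 ± 0.34, 0.12 ± 0.34 and 0.43 ± 0.34, and for SIR2 -0.20 ± 0.25, -0.20 ± 0.25 and -0.0055 ± 0.24.

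HST1 and HST2 varied between the 2 libraries of a group, and in opposite directions. In all 7 groups the library with more HST1 had less HST2. Over the 14 libraries their log2 levels gave a Pearson r of -0.944, a description over libraries that share treatments and depth. The first principal component of all genes, which held 39.3% of the variance and divided libraries within groups, had an r of 0.941 with HST1 and -0.884 with HST2. Of 5263 genes compared, 145 had an r above 0.9 with HST1 and 264 an r below -0.9, so the pattern was shared by many genes. The second component, with 28.4% of the variance, separated estradiol from the other libraries and had an r of -0.664 with HST3 and 0.785 with HST4. HST3 and HST4 had an r of -0.877 with each other. In each of the 3 estradiol groups replicate 1 had more HST3 and more SWI4 than replicate 2. The 2 genes also differed in the same direction in every ethanol group and in the untreated group, which had no induction. The smallest of these log2 differences were -0.017 for HST3 in ethanol 1 h and 0.014 for SWI4 in ethanol 2 h. HST1 also differed in the direction of SWI4 in all 7 groups, and HST2 in the opposite direction. Agreement in sign with SWI4 was thus not particular to HST3. The part of SWI4 level in the HST3 difference was not tested.

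**Figure D4:**
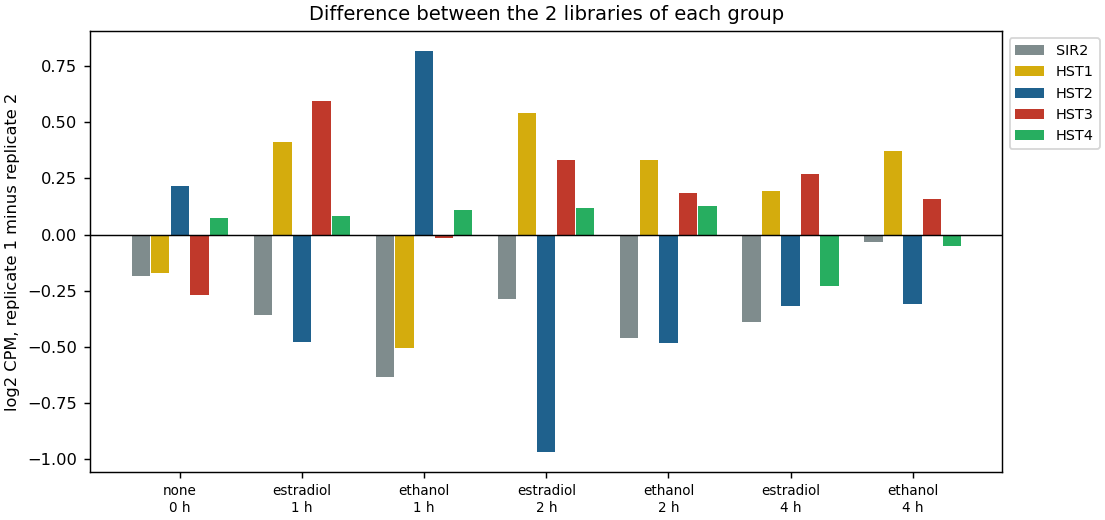
Difference in log2 CPM between replicate 1 and replicate 2 of each group for the 5 sirtuin genes. HST1 and HST2 bars point in opposite directions in all 7 groups, and the largest, for HST2 in estradiol 2 h, is -0.97.

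Genes with the highest r to each member over the 14 libraries were named by a fixed rule. For HST3 they included CRP1 (r = 0.933) and the transcription factor gene SWI5 (r = 0.926), and both passed in the averaged estradiol comparison with log2 fold changes of 0.66 and 0.93. For HST4 they were the syntaxin gene SSO1 (r = 0.967) and the a-factor genes MFA2 (r = 0.957) and MFA1 (r = 0.954), which also passed, with -0.43, -2.52 and -4.08. For HST1 they were the pseudouridine synthase gene PUS1 (r = 0.990), the splicing helicase gene PRP16 (r = 0.964) and the nuclear pore gene NUP133 (r = 0.963), none of which passed. For HST2 they were the invertase gene SUC2, the chromatin assembly gene CAC2 and the phosphatidylinositol synthase gene PIS1 (r = 0.978, 0.978 and 0.976), and none of them passed. SIR2 had no close companion, since its nearest genes COQ10, STE18 and RNH203 reached an r of 0.724, 0.722 and 0.720.

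The proteins that work with the sirtuins, and the genes they act on, were taken as lists written from general knowledge with earlier results of these libraries known. Of 13 partners in sirtuin complexes 0 passed in the averaged estradiol comparison, where edgeR called 393 of 6320 genes (6.22%) and DESeq2 551. Their median log2 fold change was 0.21, against 0.02 over all genes tested. SIR3, a silencing protein that spreads along chromatin, had 0.56 ± 0.26 (SE, edgeR adjusted p = 0.321), and SIR4, its scaffold, 0.50 ± 0.25 (adjusted p = 0.375). SIR3 stood at 68.1 and 30.9 CPM in estradiol 1 h, 22.3 and 33.1 CPM in ethanol 1 h and 35.0 and 44.3 CPM in untreated libraries, so the groups overlapped. SUM1 and RFM1, which bring Hst1 to its targets, had 0.05 ± 0.13 and 0.04 ± 0.15, and NET1 of the nucleolar complex had 0.13 ± 0.15.

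Of 8 middle sporulation genes repressed by Sum1 and Hst1, 7 could be tested and 1 passed in the averaged comparison, with a list median of 0.40. The share passing over all genes tested was 6.22%. SPS4, whose product is made during sporulation, had 29.4 and 19.9 CPM in estradiol 1 h against 3.02 and 6.04 CPM in ethanol 1 h, and 4.05 and 5.46 CPM in untreated libraries. It had 34.3 and 21.5 CPM in estradiol 2 h against 6.81 and 5.16 CPM in ethanol 2 h, and 22.8 and 19.5 CPM in estradiol 4 h against 8.85 and 4.60 CPM in ethanol 4 h. SPS4 rose by 2.04 ± 0.23 on the log2 scale (edgeR adjusted p = 0.000132), with all estradiol libraries above all others. The other 6 genes of the list tested ran from -0.34 for SMK1 to 0.50 for CDA1 and did not pass. The other markers of sporulating diploids overlapped between treatments, IME1, which starts meiosis, at 9.48 to 15.5 CPM in estradiol and 12.7 to 15.4 CPM in ethanol, and NDT80, the activator of middle sporulation genes, at 17.6 to 25.5 CPM in estradiol and 17.7 to 29.1 CPM in ethanol, and their part in the SPS4 value was not tested.

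The next lists hold the genes that make NAD, the substrate of the family. Of 6 genes of de novo synthesis and nicotinic acid uptake, 1 passed upward and 1 downward in the averaged comparison, with a median of -0.24. Over all genes tested 3.29% passed upward and 2.93% downward. BNA5, for kynureninase, rose by 0.80 ± 0.19 (SE, edgeR adjusted p = 0.027). BNA1, for the dioxygenase that acts after it, was lower in estradiol than in ethanol by 0.60 ± 0.12 (edgeR adjusted p = 0.00813). Its estradiol libraries had 65.1 and 80.7 CPM at 2 h and 90.9 and 105.0 CPM at 4 h. Both estradiol 4 h libraries thus lay above the untreated ones, so at 4 h the difference is not a fall below the untreated level. At 1 and 2 h replicate 1 of estradiol lay below both untreated libraries and replicate 2 above both. BNA1 had 55.0 and 81.0 CPM in estradiol 1 h against 103.2 and 109.2 CPM in ethanol 1 h, with untreated libraries at 73.7 and 73.2 CPM, and in ethanol 4 h it had risen by 1.09 ± 0.21 over untreated (adjusted p = 0.0217). The BNA5 call was lost without replicate 2 of estradiol 1 h or ethanol 1 h, or without any 1 of the 2 estradiol 4 h, 2 ethanol 2 h or 2 ethanol 4 h libraries, with values of 0.73 to 0.83 and adjusted p of 0.0582 to 0.0774. The BNA1 call was lost with library totals (-0.57, adjusted p = 0.0722).

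Among 9 genes of NAD salvage, 1 passed in the averaged comparison, beside 6.22% of all genes tested, with a list median of -0.08. NRT1, for a nicotinamide riboside transporter, rose by 2.42 ± 0.24 (SE, edgeR adjusted p = 3.89e-05). Its estradiol libraries had 132.5 and 168.3 CPM at 1 h, 194.5 and 347.2 CPM at 2 h, and 243.1 and 307.7 CPM at 4 h. Ethanol libraries had 61.2 and 34.9 CPM at 1 h, 34.8 and 40.5 CPM at 2 h, and 37.9 and 47.5 CPM at 4 h, and untreated ones 30.4 and 31.6 CPM, so every estradiol library lay above all the others. NRT1 belongs to a family of near-identical thiamine transporter genes, so reads may be divided among them and its value is uncertain. NPT1, for the salvage phosphoribosyltransferase, had -0.08 ± 0.11 (adjusted p = 0.797). PNC1, for the nicotinamidase that clears a sirtuin inhibitor, had 0.21 ± 0.17 (adjusted p = 0.604) for estradiol over ethanol, while ethanol 4 h over untreated gave 1.82 ± 0.30 (adjusted p = 0.00962).

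Of 10 genes of histone H3 lysine 56 acetylation and chromatin assembly, which act on the mark that Hst3 and Hst4 remove, 1 passed in the averaged comparison, and the median was -0.16. Among all genes tested 6.22% passed. ASF1, the histone chaperone required for the mark, fell by 0.70 ± 0.13 (SE, edgeR adjusted p = 0.00627). It had 42.9 and 30.0 CPM in estradiol 1 h, 49.1 and 38.2 CPM in estradiol 2 h and 42.8 and 34.3 CPM in estradiol 4 h. In ethanol it had 65.8 and 67.2 CPM at 1 h, 70.4 and 54.1 CPM at 2 h and 69.5 and 61.5 CPM at 4 h, and untreated libraries had 73.9 and 79.3 CPM. Every estradiol library lay below all ethanol and untreated libraries. The ASF1 call was lost with library totals (-0.64, adjusted p = 0.284) and with the 2 h and 4 h libraries alone (-0.65, adjusted p = 0.0526). RTT109, the acetyltransferase gene, had 0.21 ± 0.11 (adjusted p = 0.403) and did not pass.

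The remaining lists held no gene that passed in the averaged comparison, with 0 of 10 silencing factors outside the Sir complex (median 0.10), 0 of 4 zinc-dependent histone deacetylases (median 0.08) and 0 of 3 tested genes of the silent mating-type loci (median 0.22). As 6.22% of all genes tested passed, lists this short could hold none without differing from other genes. The silenced gene HMLALPHA1 had at most 2 reads in any library and was not tested. HMRA1 and HMRA2 share their sequence with the expressed mating-type locus of an a cell, and HMLALPHA2 shares sequence with HMRA2, so their counts cannot be assigned to silent copies.

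**Figure D5:**
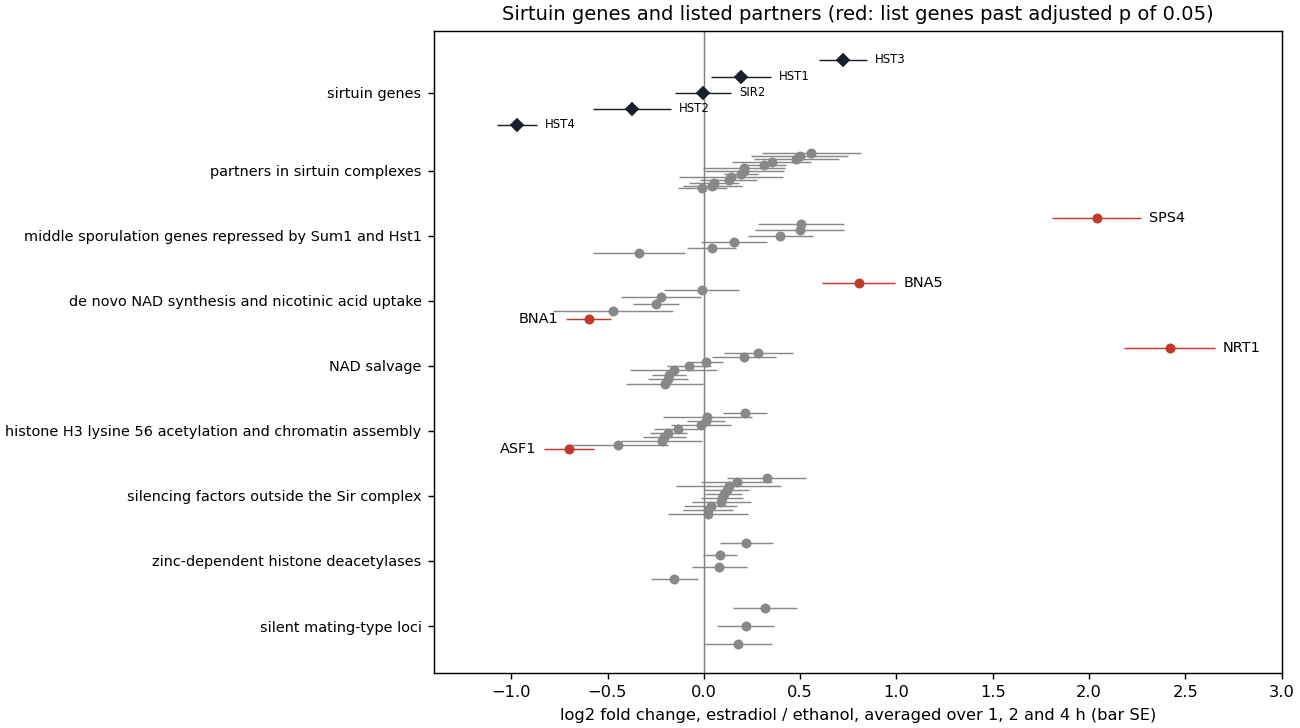
Log2 fold change of estradiol over ethanol averaged over 1, 2 and 4 h for the sirtuin genes (dark diamonds) and for each tested gene of the 8 lists (circles, bars SE). Red circles passed an adjusted p of 0.05. SPS4, BNA5 and NRT1 lie to the right and BNA1 and ASF1 to the left, while the partners in sirtuin complexes lie between -0.01 and 0.56.

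Neighbouring and related sequences were checked because the counting method is not given. No annotated gene overlaps a sirtuin gene in R64. Of the 10 nearest neighbours only CIP1, a cyclin-dependent kinase inhibitor gene that lies 663 bases from HST2 on the other strand, passed in the averaged comparison (0.43 ± 0.10, edgeR adjusted p = 0.0242). SIR2 and HST1, the closest pair, were identical at 69.9% of aligned coding bases, HST3 and HST4 at 61.3%, and no 2 of the family shared an exact run longer than 14 bases.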

How the data were processed

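The authors deposited unnormalised read counts for each open reading frame, in whole numbers, with 1 column per library. Reads were aligned with Bowtie2 2.2.5, per the submitters' processing notes, while no source used here names the counting tool, strand setting or genome build. Symbols came from the R64 gene table, which matched 5999 of 6670 identifiers. Counts were scaled by TMM, filtered by filterByExpr (minimum count 10) and fitted in edgeR 4.0.16 under R 4.3.3 by a robust quasi-likelihood model with 1 coefficient per group over 14 libraries (7 residual degrees of freedom, common biological coefficient of variation 0.206). For the average effect the 12 treated libraries were fitted with terms for treatment and time (8 residual degrees of freedom). Tests were two-sided, with Benjamini-Hochberg adjustment over all genes tested within a comparison and a threshold of 0.05. Standard errors were derived from the size of the fold change and its F statistic, and intervals use them with the residual degrees of freedom. Likeness and components used log2 CPM with a prior count of 2. The procedure was run on simulated counts with known changes, drawn independently for each gene and library. That run does not cover the differences between libraries that many genes share here. Promoter windows came from the R64 FASTA with its RefSeq annotation.

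The members and lists were chosen with earlier results of these data known. Named were the 5 members, SWI4, list genes passing an estradiol against ethanol comparison, SIR3, SIR4, SUM1, RFM1, NET1, RTT109, ASF1, NPT1, PNC1 and the 3 genes most like each member (1 of them is not reported here), and the motifs, IME1, NDT80 and genes beside the members were added after their values were seen. Alternatives were other scalings, no filter on low counts, DESeq2 1.42.0, a replicate block, fits of only the groups compared, the 2 h and 4 h libraries alone, and leaving out each library.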

Additional observations from a re-analysis of the deposited data

How the results depend on the processing

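HST3 in the averaged comparison stayed above 0 in all 19 alternatives and passed in 18, the exception being library totals, and HST4 passed in all 19. With library totals the median of all genes at 1 h moved by 0.31 on the log2 scale, so changes there are relative to that shift. The 1 h values then were 0.10 for SIR2, 0.78 for HST1, -0.39 for HST2, 1.14 for HST3 and -0.76 for HST4, and ethanol 1 h against untreated gave 1 gene called. Calls at 1 h were 37 higher and 19 lower with library totals, against 30 and 31 with TMM, and at 2 h 52 and 35 against 57 and 23. At 4 h they were 65 and 54 with library totals, against 75 and 44 with TMM. DESeq2 called 155, 150 and 208 genes for estradiol against ethanol at 1, 2 and 4 h, and 22, 41 and 486 for ethanol against untreated. Fits of only the groups compared called 97 and 40 genes for estradiol against ethanol at 1 and 2 h, and 255 and 853 for ethanol against untreated at 2 and 4 h, from fewer samples. The 2 h and 4 h libraries alone, an alternative chosen after seeing the data, gave 237 calls in the average. The cause of these differences was not tested.

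Deviations of same-numbered libraries from their group means were correlated at 0.314 to 0.741 among the 3 estradiol groups, ethanol 2 h and ethanol 4 h, and at 0.604 between ethanol 1 h and untreated. Between these sets the correlations were -0.692 to -0.266, so the numbers as labelled did not pair all groups. With the replicate block 5 and 175 genes were called for ethanol against untreated at 2 and 4 h. With the numbers of ethanol 1 h and untreated crossed, added after seeing the data, the replicate block called 707, 268, 414 and 810 genes for estradiol against ethanol at 1, 2 and 4 h and in the average, and 326, 114 and 1293 for ethanol against untreated.

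Leaving out 1 library gave 12 to 205, 29 to 95 and 43 to 159 genes called for estradiol against ethanol at 1, 2 and 4 h and 219 to 445 in the average, and 0 to 2, 0 to 4 and 10 to 216 for ethanol against untreated at 1, 2 and 4 h. The log2 fold changes at 1 h then ranged from -0.43 to 0.24 for SIR2, 0.27 to 0.81 for HST1, -1.10 to -0.31 for HST2 and 0.49 to 1.06 for HST3, and at 2 h from -0.33 to 0.13 for SIR2, -0.27 to 0.28 for HST1 and -0.79 to 0.18 for HST2. At 4 h they ranged from 0.014 to 0.40 for SIR2, -0.14 to 0.23 for HST1 and -0.33 to -0.0017 for HST2, and in the average from -0.090 to 0.098 for SIR2, 0.097 to 0.27 for HST1 and -0.54 to -0.22 for HST2. Having 2 libraries a group limits what the single times can show, and counts of 34 to 64 limit HST4 at 1 and 2 h.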
